A study of Mus musculus with 6 samples.

Results

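The genes described here code for 6 proteins that move ions across the plasma membrane of brain cells: Atp1b1 and Atp1b2 (beta subunits of the sodium pump), Atp2b1 (a calcium pump), Slc8a1 (a sodium-calcium exchanger), and the chloride cotransporters Slc12a5 and Slc12a2. They were taken by name from the deposited gene table, in which all 6 were present among 41386 genes. RNA-seq of mouse hippocampus covered 3 sham libraries and 3 libraries of cerebral ischemia/reperfusion (I/R), in which a filament blocked the middle cerebral artery (1.5 h) and was then withdrawn for 24 h of reperfusion. The sham mice had the same surgery with no filament. All mice were wild type, 56 days old and of the strain C57BL/6 per the labels, and male C57BL/6J per the study's methods; the ipsilateral hippocampi of 3 mice were pooled per library, so the spread between libraries is one between pools. Libraries held 37493042 to 44788547 counts.

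The sodium pump (Na,K-ATPase) exports sodium and imports potassium at the cost of ATP, and pairs a catalytic alpha subunit with a beta subunit that brings it to the membrane. Calcium is extruded by the plasma membrane calcium pumps, which use ATP, and by the sodium-calcium exchangers, which use the sodium gradient that the sodium pump keeps up. Slc12a5 (KCC2) is the potassium-chloride exporter that keeps chloride low in mature neurons, so that GABA inhibits them. Slc12a2 (NKCC1) imports sodium, potassium and chloride. It is found in glia, endothelium and immature neurons and is abundant in choroid plexus, the epithelium that makes cerebrospinal fluid and whose marker is Ttr. In ischemia the pumps lose their ATP supply, which is why these genes are of interest in this tissue.

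The window upstream of a start site is shown for the 3 members with the highest sham levels among those that fell. The sequences are from RefSeq's GRCm38.p6 assembly of C57BL/6J and cover the 250 bases before an annotated start, written 5′ to 3′ on the gene's strand. Capitals mark matches to 6 short motifs on either strand.

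Slc12a5, first start (chr2:164960596-164960845, plus strand): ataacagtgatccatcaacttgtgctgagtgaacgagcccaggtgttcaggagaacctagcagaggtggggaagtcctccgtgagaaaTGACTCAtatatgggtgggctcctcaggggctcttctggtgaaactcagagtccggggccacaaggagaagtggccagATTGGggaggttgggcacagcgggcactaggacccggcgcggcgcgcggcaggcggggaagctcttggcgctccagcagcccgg
Slc12a5, second start (chr2:164967738-164967987, plus strand): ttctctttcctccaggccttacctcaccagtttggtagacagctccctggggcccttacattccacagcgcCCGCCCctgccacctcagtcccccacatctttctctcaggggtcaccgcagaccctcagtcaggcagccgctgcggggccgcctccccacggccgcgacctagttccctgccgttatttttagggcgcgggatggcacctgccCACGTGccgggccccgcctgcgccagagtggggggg
Atp2b1, first start (chr10:98914392-98914641, plus strand): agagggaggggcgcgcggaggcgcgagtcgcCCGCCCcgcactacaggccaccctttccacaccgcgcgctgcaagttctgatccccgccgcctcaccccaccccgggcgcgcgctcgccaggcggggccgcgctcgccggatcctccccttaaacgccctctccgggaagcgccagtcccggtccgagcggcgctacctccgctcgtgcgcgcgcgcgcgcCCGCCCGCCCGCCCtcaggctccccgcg
Atp1b1 (chr1:164458356-164458605, minus strand): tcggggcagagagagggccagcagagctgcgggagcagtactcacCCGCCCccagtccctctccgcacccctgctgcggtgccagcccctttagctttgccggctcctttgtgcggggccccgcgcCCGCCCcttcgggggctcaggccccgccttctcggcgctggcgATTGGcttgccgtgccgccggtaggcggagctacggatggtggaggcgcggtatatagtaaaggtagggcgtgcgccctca

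The motifs searched were the AP-1 site TGANTCA, the cAMP response element TGACGTCA, the E-box CACGTG, the GC box GGGCGG, the TATA box TATAAA and CCAAT. No 2 marked matches in the printed windows were of different motifs in the same place. The first Slc12a5 window held an AP-1 site, TGACTCA, whose first base lies at position -162 from the start, and AP-1 sites were in 6.75% of 32851 windows of the same length. The second Slc12a5 window held an E-box at -36, a motif in 6.02% of all windows. The first Atp2b1 window held 4 GC boxes, a second that is not shown (chr10:98914902-98915151) held 3, and the Atp1b1 window held 2, and 32.7% of all windows held at least 1. The single Slc8a1 window held none of the 6 motifs. GC content was 70.4% for Atp1b1, 78.4% and 80.8% for Atp2b1, 61.2% and 67.2% for Slc12a5 and 50.4% for Slc8a1, against a median of 52.4% over all windows. The counts are per gene and do not tell the starts of a gene apart.

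After I/R, 5 of the 6 genes were lower and 1, Slc12a2, was not called in either direction. Slc12a5 fell most, to 0.371 of its sham level, followed by Atp2b1 at 0.416, Slc8a1 at 0.555, Atp1b1 at 0.581 and Atp1b2 at 0.807. To be called, a gene needed a fold change above 1.2 in either direction and an adjusted p below 0.05 by edgeR's quasi-likelihood test; 41.8% of 18569 tested genes met this rule, 21.8% as higher and 19.9% as lower. The 3 I/R libraries lay below all 3 sham libraries for 5 of the 6 genes, which was so for 28.1% of tested genes; 29.3% had all I/R libraries above, and 57.4% had no overlap either way. Levels are CPM, counts scaled to library sizes that were adjusted by edgeR's TMM factors. In bulk tissue, fewer cells of a type and less RNA per cell cannot be told apart.

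**Figure D1:**
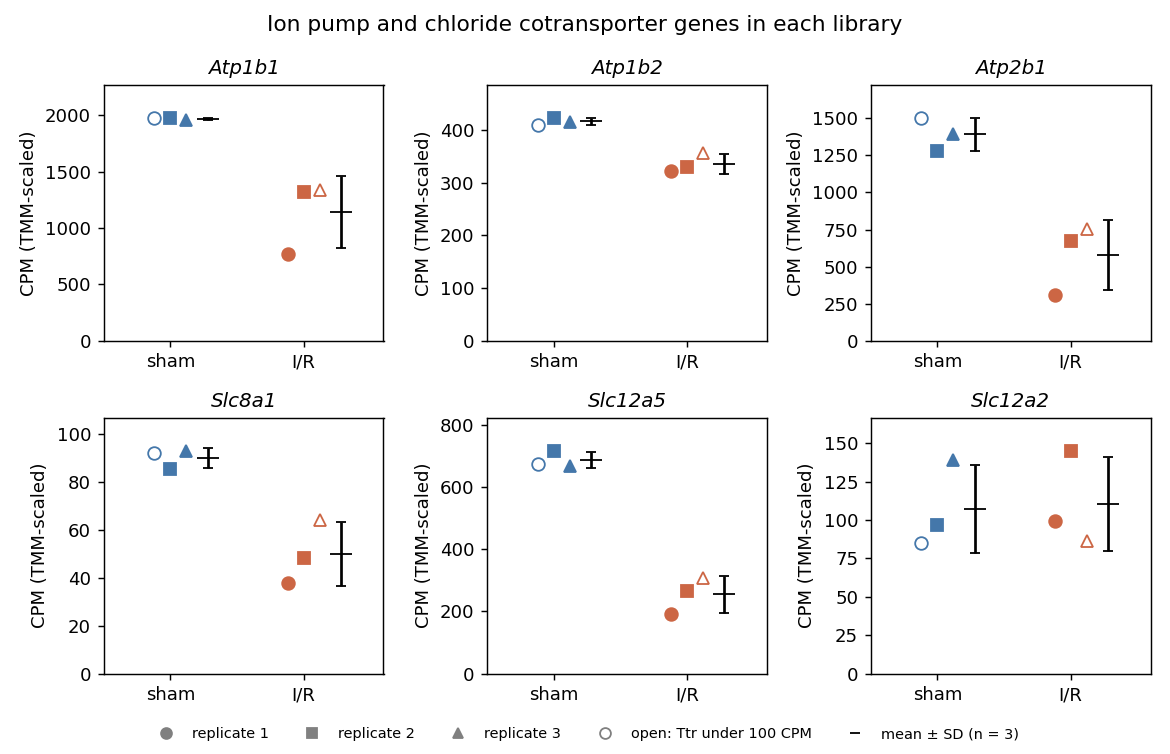
Level of each member gene in the 3 sham and 3 I/R libraries, in CPM on a linear axis from 0, with one symbol per replicate number, open symbols for the libraries with Ttr under 100 CPM, and the mean ± SD beside the points. The I/R libraries lie below all sham libraries in every panel but that of Slc12a2, where the groups overlap, and I/R replicate 1 is the lowest point of the other 5 panels.

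The chloride exporter Slc12a5 (MGP_BALBcJ_G0026860) lies on the plus strand of chromosome 2, at 163866855 to 163906947 of the BALB/cJ genome that the table's coordinates use. Its level was 676, 718 and 671 CPM in sham replicates 1, 2 and 3 and 191, 266 and 309 CPM in the I/R replicates. The groups did not overlap, and the highest I/R library was far below the lowest sham library. On the log2 scale Slc12a5 fell by 1.43 ± 0.18 (edgeR, SE, 95% interval -1.84 to -1.02, adjusted p of 0.00101). It was called in all 16 alternative settings, with log2 fold changes from -1.62 to -1.18.

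The chloride importer Slc12a2 is on chromosome 18 (MGP_BALBcJ_G0024417). It stood at 85.2, 96.5 and 139 CPM in sham and at 99.2, 145 and 86.6 CPM in I/R, so that each group held a low and a high library. On the log2 scale I/R differed from sham by 0.04 ± 0.23 (edgeR, SE, adjusted p of 0.897), and the 95% interval of -0.49 to 0.58 leaves room for a change of either sign. It was not called in any of the 16 alternatives.

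The Ttr levels of the same libraries were 9.86, 2490 and 4090 CPM in sham and 1510, 3470 and 20.3 CPM in I/R. The 2 libraries with little Ttr, sham replicate 1 and I/R replicate 3, had the 2 lowest levels of Slc12a2, and the 2 libraries richest in Ttr had the 2 highest. All 11 choroid plexus markers found in the table summed to 45.2 to 4570 CPM in sham and to 46.0 to 3683 CPM in I/R. Their defining member Ttr was detected in all libraries, but only at 9.86 and 20.3 CPM in the 2 with little Ttr. Of the 11 markers 1 was called, beside 41.8% over all tested genes. It was Sostdc1, at a log2 fold change of -1.92 with groups that overlapped. With log2 of Ttr as a covariate in the edgeR fit, the slope of Slc12a2 was 0.07 log2 units per doubling of Ttr (SE 0.02, edgeR adjusted p of 0.999). None of the 6 members passed this test, against 0.258% of all tested genes. With so few libraries, not passing does not show that a gene is unrelated to Ttr. The log2 fold change of Slc12a2 for I/R was 0.04 with that covariate, 0.04 in the 4 Ttr-rich libraries alone and 0.02 between the 2 Ttr-poor libraries, the last with no replicate.

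**Figure D2:**
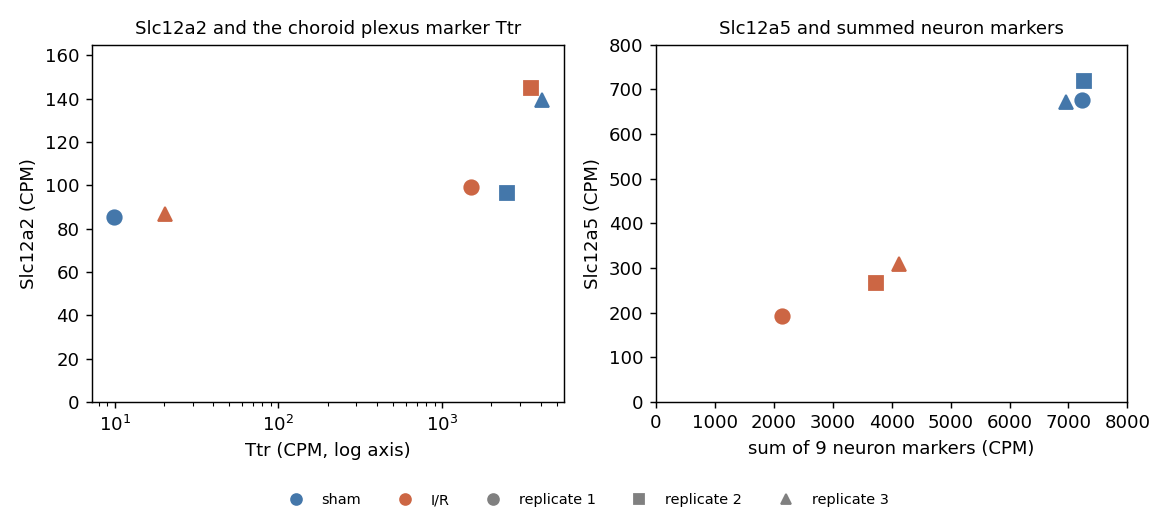
Left, Slc12a2 in CPM against the choroid plexus marker Ttr in CPM on a log axis; right, Slc12a5 in CPM against the summed CPM of the 9 neuron markers in the table, with sham in blue, I/R in orange and one symbol per replicate number. Slc12a2 lies at 85.2 to 99.2 CPM in the 4 libraries with the least Ttr and at 139 and 145 CPM in the 2 with the most, with both groups at each end, while Slc12a5 separates the groups.

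For the other members, in the 4 Ttr-rich libraries the log2 fold changes of Slc12a5, Atp2b1 and Slc8a1 were -1.61, -1.46 and -1.07, and each was called (edgeR adjusted p of 0.00756, 0.0328 and 0.00882). Between the 2 Ttr-poor libraries the log2 ratios were -1.13, -0.99 and -0.52. Atp1b1 was at -0.92 and Atp1b2 at -0.38 in the Ttr-rich libraries, neither called (edgeR adjusted p of 0.0663 and 0.125), with 2 libraries left in each group.

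The ratio of exporter to importer does not depend on how libraries are scaled to each other. Counts of Slc12a5 were 7.94, 7.44 and 4.81 times those of Slc12a2 in sham replicates 1, 2 and 3, and 1.93, 1.84 and 3.56 times in the I/R replicates. All I/R ratios lay below all sham ratios. The mean log2 ratio was 2.72 ± 0.39 in sham and 1.22 ± 0.53 in I/R (SD, n = 3 each), a difference of -1.50 (two-sided exact permutation, p of 0.1; 3 libraries against 3 can give none smaller). The highest I/R ratio and the highest sham ratio came from the libraries with little Ttr. Within the 4 Ttr-rich libraries the difference was -1.67, and leaving out 1 library gave -1.804 (without I/R replicate 3) to -1.33 (without I/R replicate 2), with -1.36 without sham replicate 1.

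The plasma membrane calcium pump Atp2b1 (PMCA1) is on chromosome 10 from 97358490 to 97472064 (plus strand, MGP_BALBcJ_G0017625). Its level was 1500, 1280 and 1393 CPM in sham and 311, 672 and 754 CPM in I/R. The groups did not overlap, but I/R replicate 1 was far below the other 2 I/R libraries, and the coefficient of variation was 40.7% in I/R against 7.90% in sham. Atp2b1 fell by 1.26 ± 0.30 on the log2 scale (edgeR, SE, 95% interval -1.96 to -0.57, adjusted p of 0.0119), and the value was -0.97 without I/R replicate 1. It was called in all 16 alternatives. Of the 50-base stretches of its GENCODE M21 transcripts, 1.27% were shared with another gene, against at most 0.00529% for the other members.

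Slc8a1 (NCX1), which exchanges sodium for calcium, is on chromosome 17 from 81620708 to 81906534 (minus strand, MGP_BALBcJ_G0024029). It stood at 92.0, 85.5 and 93.0 CPM in sham and at 37.8, 48.2 and 64.2 CPM in I/R, with no overlap. Slc8a1 fell by 0.85 ± 0.17 on the log2 scale (edgeR, SE, 95% interval -1.25 to -0.45, adjusted p of 0.00657), and it was called in all 16 alternatives. Counts of Atp2b1 were 16.3, 15.0 and 15.0 times those of Slc8a1 in sham and 8.23, 14.0 and 11.8 times in I/R. The mean log2 ratio differed by -0.48 (two-sided exact permutation, p of 0.1). This difference was smaller, at -0.27, without I/R replicate 1.

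Atp1b1, the beta subunit most abundant in neurons, is on chromosome 1 from 163447297 to 163468910 (minus strand, MGP_BALBcJ_G0016627). It ranked 22 among the 18569 tested genes by its mean sham CPM. Its sham levels were 1975, 1975 and 1959 CPM, a coefficient of variation of 0.473%, whereas its I/R levels were 773, 1322 and 1337 CPM, at 28.1%. The sham libraries thus lay close together and the I/R libraries were spread, with replicate 1 far below the other 2. Atp1b1 fell by 0.78 ± 0.22 on the log2 scale (edgeR, SE, 95% interval -1.29 to -0.28, adjusted p of 0.0225). It was called in 10 of 16 alternatives, and was -0.57 without I/R replicate 1. The call was lost on FPKM (limma adjusted p of 0.0610 and 0.0501), with the Ttr-rich libraries only and without any 1 of the sham libraries (edgeR adjusted p of 0.0648 to 0.0729), at log2 fold changes from -0.92 to -0.57.

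Atp1b2, a beta subunit of glia that also acts in cell adhesion, is on chromosome 11 from 67723981 to 67730187 (minus strand, MGP_BALBcJ_G0018479). Its level was 410, 422 and 416 CPM in sham and 321, 329 and 356 CPM in I/R, a small step with no overlap. Atp1b2 fell by 0.31 ± 0.10 on the log2 scale with TMM (edgeR, SE, 95% interval -0.54 to -0.08, adjusted p of 0.0359). Without the TMM factor the value was -0.056 (edgeR adjusted p of 0.624), and the gene was called in 6 of 16 alternatives. Leaving out that factor also moved the median of all tested genes on the log2 scale, from 0.03 to 0.28, so directions hold relative to TMM scaling. Counts of Atp1b1 were 4.82, 4.68 and 4.71 times those of Atp1b2 in sham and 2.41, 4.02 and 3.75 times in I/R. The mean log2 ratio of the 2 beta subunits differed by -0.52 between I/R and sham (two-sided exact permutation, p of 0.1), and by -0.29 without I/R replicate 1.

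**Figure D3:**
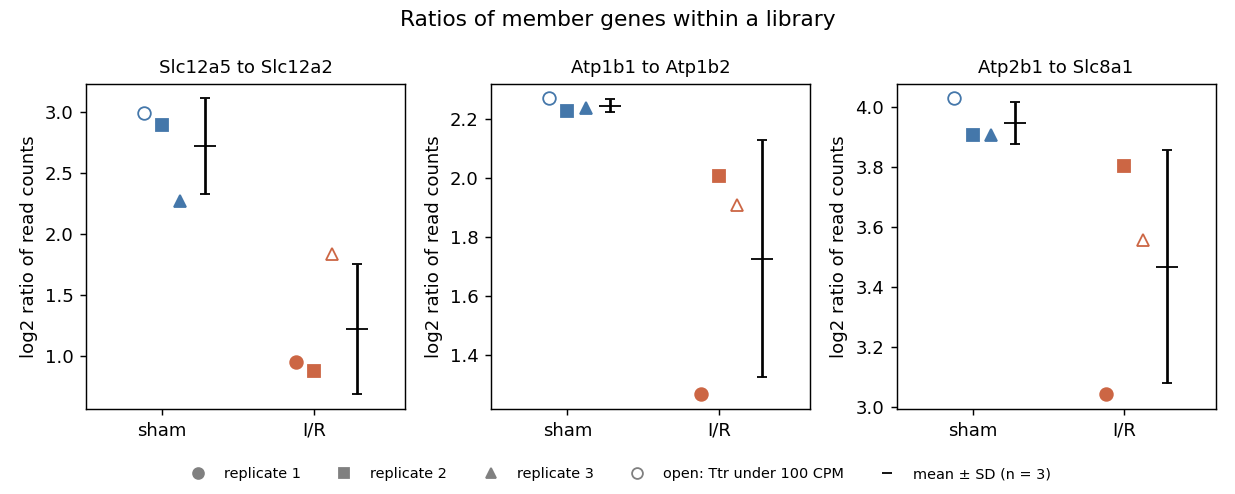
Log2 ratio of the read counts of 2 members within each library, for Slc12a5 to Slc12a2, Atp1b1 to Atp1b2 and Atp2b1 to Slc8a1, with the mean ± SD of 3 libraries and open symbols for libraries with Ttr under 100 CPM; each panel has its own axis, which does not start at 0. All 3 I/R points lie below the 3 sham points in each panel, and in the last 2 panels I/R replicate 1 lies far below the others.

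Levels of different genes were compared per length, on the deposited FPKM (fragments per kilobase of gene length, scaled to the reads of the library). In sham the order was Atp1b1 at 1680 ± 12.5, Slc12a5 at 256 ± 7.74, Atp1b2 at 209 ± 1.63, Atp2b1 at 178 ± 15.3, Slc8a1 at 28.03 ± 1.46 and Slc12a2 at 15.0 ± 4.03 FPKM (SD, n = 3), with no overlap between neighbours. In I/R it was Atp1b1 at 1160 ± 283, Atp1b2 at 201 ± 7.79, Slc12a5 at 112 ± 21.8, Atp2b1 at 87.3 ± 32.8, Slc8a1 at 18.45 ± 4.27 and Slc12a2 at 18.4 ± 4.86 FPKM. There the libraries of Slc12a5 and Atp2b1 overlapped, as did those of Slc8a1 and Slc12a2. For 69.4% of 16421 genes with at least 10 counts in every library, the FPKM values imply a shorter length than the deposited length column. Examples are 2464 against 6010 bases for Slc12a5 and 1070 against 2580 for Atp1b1, whereas both were 6519 for Slc12a2. Per kilobase of the length column, Atp2b1 (177 ± 15.2) came before Slc12a5 (105 ± 3.17) and Atp1b2 (101 ± 0.794) in sham, so the order of these 3 depends on the length used.

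I/R replicate 1 was the lowest of the I/R libraries for 5 of the 6 members, all but Slc12a2. It was also lowest in the sum of 9 neuron markers, which was 2134, 3741 and 4131 CPM in I/R replicates 1, 2 and 3 and 6958 to 7257 CPM in sham. All 9 neuron markers were called lower, with log2 fold changes from -1.30 for Nefl to -0.29 for Nefm and a median of -1.005, beside a median of 0.03 over all tested genes. Markers of dentate granule cells (6 of 6 lower, median -1.94) and of CA1 pyramidal cells (5 of 5 lower, median -1.12) also fell. Summed astrocyte markers were 5149 to 5471 CPM in I/R and 5638 to 5936 CPM in sham, with 2 of 9 higher and 5 lower. Markers of infiltrating myeloid cells summed to 15.8 to 54.5 CPM in I/R against 3.87 to 5.17 CPM in sham, with all 4 tested genes higher. Of the endothelium markers 4 of 5 were higher and 1 lower. The microglia markers had 3 of 6 higher and 2 lower, and the oligodendrocyte markers 3 of 8 lower. All these marker counts stand beside 21.8% called higher, 19.9% lower and 41.8% in either direction over all tested genes. Striatum markers summed to 60.4 to 84.3 CPM in I/R and 75.4 to 111 CPM in sham.

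With libraries scaled to the summed counts of the neuron markers, a setting added after seeing the data, Slc12a5, Atp2b1, Slc8a1 and Atp1b1 were not called. This scaling shifts all genes upward: 13525 were called, 99.5% of them higher, and 68 were called lower. Slc12a5 was then at -0.29 and Atp2b1 at -0.20 (edgeR adjusted p of 0.184 and 0.341), and Slc8a1 and Atp1b1 were at 0.28 and 0.33 (0.306 and 0.0993). Relative to these markers Atp1b2 was higher by 0.89 (edgeR adjusted p of 0.00874) and Slc12a2 by 1.24 (0.00748). In this scaling the median of all tested genes was 1.24, so that Slc12a2 kept the place of a typical gene and the other 5 lay below it. Snap25 made up 30.9% of the summed mean sham CPM of the 9 markers. Its log2 fold change was -1.30, beside a median of -1.005 for the list, so the values depend on which markers are abundant. The part of neuron content in the falls of the members was not tested.

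**Figure D4:**
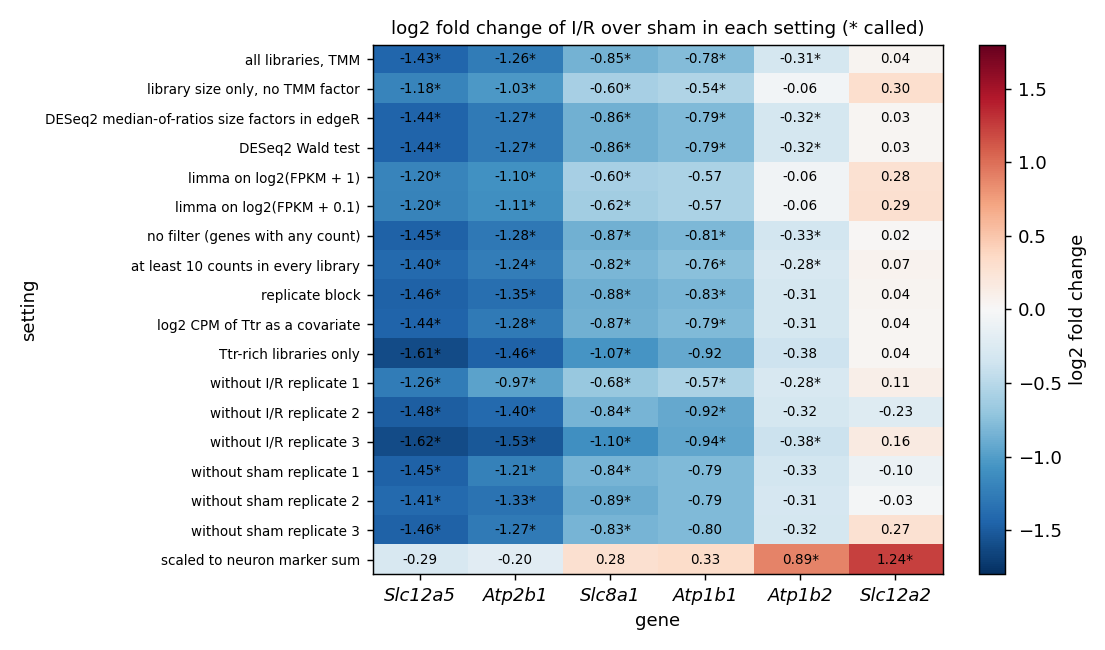
Log2 fold change of I/R over sham for each member gene (columns) in each setting (lines), coloured from blue (lower in I/R) to red (higher), with an asterisk where the gene was called. Slc12a5, Atp2b1 and Slc8a1 carry an asterisk in every setting but the last, Atp1b1 and Atp1b2 in a part of them, and Slc12a2 only in the last, the scaling to neuron markers.

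The companion genes of these pathways, 56 genes in 6 lists, had 52 tested, of which 5 were called higher and 21 lower, beside 21.8% higher and 19.9% lower over all tested genes. Their median log2 fold change was -0.31, against 0.03 over all tested genes. With library size only, 12 were higher and 16 lower. This moved the higher share of the calls from 19.2% to 42.9% in the lists and from 52.3% to 75.8% over all tested genes. In the 4 Ttr-rich libraries 4 were higher and 16 lower.

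Among the other sodium pump genes, 4 of 11 tested fell and 1 rose, 5 calls of 11 beside the 41.8% called over all tested genes. The count of lower genes was 2 without sham replicate 1, 2 or 3, with the replicate block, in the Ttr-rich libraries, with library size only and on FPKM. The third beta subunit tested, Atp1b3, was at 78.7 ± 3.46 CPM in sham and 93.7 ± 5.16 CPM in I/R, a log2 fold change of 0.25 that was under the fold change limit. FXYD proteins are small regulators of the pump. Fxyd7, a brain form, fell by 1.69 (SE 0.22, edgeR adjusted p of 0.00123), and Fxyd5 rose by 2.81 (SE 0.25, edgeR adjusted p of 0.000375), from 5.33 ± 0.718 to 37.5 ± 13.3 CPM. Fxyd6, at -0.24 (SE 0.11), was not called (edgeR adjusted p of 0.102).

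Of the other calcium pumps, 5 of 8 tested fell and 0 rose by edgeR; 5 had an unadjusted p under 0.05, and DESeq2 also called 5 lower and 0 higher. Over all tested genes 19.9% were called lower, and 3 of these pumps were in the Ttr-rich libraries and on FPKM plus 1. Atp2b3 and Atp2b2, plasma membrane pumps of neurons, fell by 1.71 (SE 0.21) and 1.04 (SE 0.22) on the log2 scale, and Atp2b4 by 0.60 (SE 0.12). Atp2b3 was at 265, 297 and 323 CPM in sham and at 60.0, 106 and 105 CPM in I/R. The endoplasmic reticulum pump Atp2a3 fell by 0.79 (SE 0.23), a call kept in 7 of 16 alternatives. The Golgi pumps Atp2c1 and Atp2c2 were at -0.28 (SE 0.13) and -0.81 (SE 0.51) and were not called.

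Of the other sodium-calcium exchangers, 4 of 8 tested fell and 0 rose by edgeR and by DESeq2, beside 19.9% called lower over all tested genes; 4 had an unadjusted p under 0.05. Slc8a2 (NCX2) fell by 1.52 (SE 0.28, edgeR adjusted p of 0.00412), from 507, 537 and 516 CPM in sham to 100, 212 and 230 CPM in I/R. The potassium-dependent exchangers Slc24a2, Slc24a3 and Slc24a4 fell by 1.46 (SE 0.35), 1.42 (SE 0.20) and 0.65 (SE 0.19). The call of Slc24a4 was kept in 9 of 16 alternatives, against 15 for Slc24a2 and 16 for Slc24a3. Slc8a3 (NCX3) was at 20.6 ± 1.43 CPM in sham and 21.6 ± 2.88 CPM in I/R, and the mitochondrial exchanger Slc8b1 was at 0.32 (SE 0.17); neither was called.

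The other cation-chloride cotransporters had 4 of 6 tested called higher and 1 lower, beside 21.8% and 19.9% over all tested genes, and a median log2 fold change of 0.86. The higher count was 1 without sham replicate 1 and 2 without sham replicate 3. Slc12a7 (KCC4) rose by 1.02 (SE 0.24, edgeR adjusted p of 0.0120), Slc12a4 (KCC1) by 0.70 (SE 0.22) and Slc12a8 by 1.06 (SE 0.30), the last from 0.915 ± 0.251 to 1.92 ± 0.217 CPM. Reads of Slc12a3 numbered 4, 2 and 2 in the sham replicates and 240, 24 and 48 in the I/R replicates, which put it at 5.02 ± 0.98 on the log2 scale (edgeR, SE, adjusted p of 0.00541). I/R replicate 1 held most of these reads, and the value was 3.62 without it. With library size only the list had 5 genes called higher and 0 lower. Slc12a9 was at 0.35 (SE 0.15) and was not called.

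The pathway of the WNK kinases and their partners leads to phosphorylation of both chloride cotransporters, which activates Slc12a2 and inhibits Slc12a5. Of 8 genes of this pathway tested, 1 was called, beside 41.8% over all tested genes, and 4 with library size only (3 higher and 1 lower). The called gene was Wnk2, which fell by 0.70 (SE 0.11, edgeR adjusted p of 0.00246) from 162 ± 0.790 to 99.5 ± 13.8 CPM. The most abundant of the rest, Wnk1 and Cab39, were at 0.18 (SE 0.14) and 0.14 (SE 0.14).

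**Figure D5:**
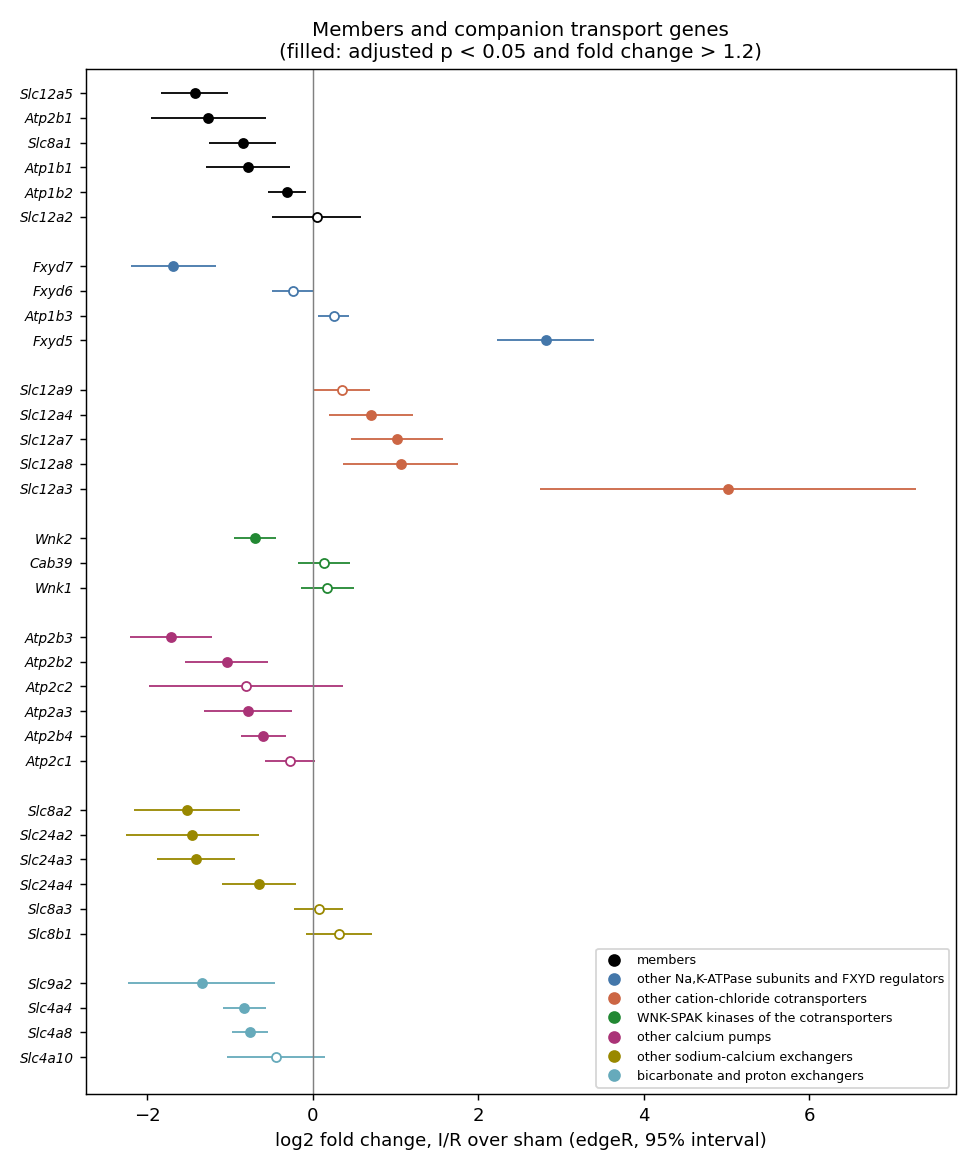
Log2 fold change of I/R over sham with its 95% interval (edgeR) for the members and for the companion genes chosen by the rule for named genes with a mean of at least 1 CPM in either group, grouped by list and coloured by it, filled where called. Among the called companion genes, the calcium pumps and sodium-calcium exchangers lie to the left of 0, whereas Fxyd5 and 4 cation-chloride cotransporters lie to the right.

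For each member, the named genes with the most similar pattern were found among 11610 other genes of at least 5 CPM, by the root mean square difference of gene-centred log2 CPM over the 6 libraries. Slc12a5 was nearest to Panx2, a pannexin channel gene, and Nhsl2, at 0.0188 and 0.0330 log2 units. Atp2b1 was nearest to Kcnd2, the potassium channel Kv4.2, at 0.0175 and to Pgm2l1 at 0.0514. Atp1b1 was nearest to Slc35f4 and Ube2e2 at 0.0255 and 0.0290, Slc8a1 to 2810468N07Rik and Adam22 at 0.0250 and 0.0549, and Atp1b2 to Letmd1 and Ntpcr at 0.0161 and 0.0245. Slc12a2 had no match as close, with Pcp4l1 and Cpq at 0.112 and 0.114.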

How the data were processed

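Hippocampal RNA of 3 sham and 3 I/R libraries was sequenced. The authors aligned reads with TopHat2 to an Ensembl genome and counted them per gene with HTSeq; the submitters' processing notes also list Bowtie 0.12.2 and mm8. The deposited table holds raw counts, FPKM values that the authors derived from these counts, the gene length, and columns of the authors' own comparison, which were not used. Identifiers are those of the BALB/cJ annotation, although the mice were C57BL/6J. Strand settings are not given in the sources used here. HTSeq by default drops reads that fit several places or genes.

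Groups and replicate numbers came from the sample titles. For the tests, edgeR 4.0.16 (R 4.3.3) was used with filterByExpr, TMM factors, a robust quasi-likelihood fit and Benjamini-Hochberg adjustment over all genes tested. Each SE is the absolute log2 fold change over the root of its F statistic. DESeq2 1.42.0 and limma 3.58.1, on log2 of FPKM plus 1 or 0.1, were alternatives. The fit was tested on simulated counts. Correlations of deviations from the group means between same-numbered libraries were -0.0967, 0.0556 and -0.184. They gave no sign that the numbers pair the libraries, but with 3 libraries per group they cannot exclude it. Intervals cover the spread between these libraries only.

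The members and lists were chosen with earlier results of these data known. Of 136 listed symbols, 132 were in the table; the others were not analysed here. From each companion list the text names up to 4 called genes with the largest change and up to 2 uncalled genes with the highest level; Slc4a5, Slc4a7 and Sostdc1 were named after their values were seen, and some listed genes are counted but not reported here by name. Promoter windows of 4 of the 6 members were matched by symbol in RefSeq; for Slc12a2 and Atp1b2 none is shown. Ttr-rich means at least 100 CPM of Ttr.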

Additional observations from a re-analysis of the deposited data

How the results depend on the processing

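The log2 fold changes of Slc12a5, Slc8a1 and Atp2b1 kept their direction and call in all 16 alternatives that used libraries, filters, scalings or tests other than those of the report. Leaving out 1 library gave -1.62 to -1.26 for Slc12a5, -1.10 to -0.68 for Slc8a1 and -1.53 to -0.97 for Atp2b1. For Atp1b1 it gave -0.94 to -0.57, with the call lost without any 1 of the sham libraries, and the call was also lost on FPKM plus 1 (-0.57) or plus 0.1 (-0.57) and in the Ttr-rich libraries (-0.92). Atp1b2 lost its call with library size only (-0.056), on FPKM plus 1 (-0.057) or plus 0.1 (-0.057), with the replicate block (-0.31), with the Ttr covariate (-0.31) and in the Ttr-rich libraries (-0.38), and also without I/R replicate 2 or any 1 of the sham libraries; it ranged from -0.38 to -0.28 over the leave-one-out fits. Slc12a2 ranged from -0.23 to 0.27 there and was lower in I/R without I/R replicate 2 or without sham replicate 1 or 2. Scaling to the neuron markers gave -0.29 for Slc12a5, -0.20 for Atp2b1, 0.28 for Slc8a1, 0.33 for Atp1b1, 0.89 for Atp1b2 and 1.24 for Slc12a2. The difference in log2 ratio kept its sign in every alternative. This could not have been otherwise, since all I/R ratios lay below all sham ratios.

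The count of called genes was 7756, and 5255 to 8386 over the alternatives, within 1.5 times. The share of calls that were higher was 52.3%, and 75.8% without the TMM factor. Fewer libraries enter the leave-one-out and Ttr-rich fits. The replicate block gave 6332 genes and changed the call of no member but Atp1b2. Among genes not called, several changed sign: with library size only, FPKM plus 1 and FPKM plus 0.1, Cpq was at 0.15, 0.12 and 0.13, Fxyd6 at 0.012, 0.0097 and 0.0099 and Pcp4l1 at 0.24, 0.23 and 0.23, and Pcp4l1 was at 0.014 with at least 10 counts in every library. Over the leave-one-out fits Cpq ranged from -0.37 to 0.045, Pcp4l1 from -0.25 to 0.13, Cab39 from -0.00045 to 0.27 and Slc8a3 from -0.017 to 0.15.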

Other observations

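The bicarbonate and proton exchangers set the pH of cells with the gradients kept by the sodium pump. Of 11 tested, 6 were lower and 0 higher in I/R by edgeR, beside 19.9% lower and 21.8% higher over all tested genes. Their median log2 fold change was -0.69, against 0.03 over all tested genes. At an unadjusted p under 0.05 there were 7, the seventh being Slc4a7 at 0.33; DESeq2 also called 6 lower and 0 higher, and library size only gave 6 lower and 1 higher. The proton exchanger Slc9a2 fell by 1.35 ± 0.39 on the log2 scale (edgeR, SE, adjusted p of 0.0248). The sodium-bicarbonate cotransporter Slc4a4, abundant in astrocytes, went from 213 ± 9.81 to 120 ± 16.1 CPM, and the sodium-driven exchanger Slc4a8 from 71.2 ± 0.823 to 42.0 ± 4.16 CPM (SD, n = 3 each). Slc4a10 was not called, at -0.45 (SE 0.26).

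Slc4a5, a bicarbonate transporter of the choroid plexus, had 1, 898 and 1086 counts in sham replicates 1, 2 and 3 and 489, 501 and 2 in the I/R replicates. It was at or near 0 in the same 2 libraries that had little Ttr, and rose by 1.05 log2 units per doubling of Ttr (SE 0.07, edgeR adjusted p of 0.00435).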
